A study of Mus musculus with 21 samples.

Results

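A set of 9 nuclear genes with roles in RNA binding and nuclear architecture were followed across inguinal lymph nodes and skin of Ifnk transgenic (TG) and wild-type (WT) mice: Safb, Safb2, Sfpq, Nono, Pspc1, Hnrnpu, Matr3, Malat1 and Neat1. These 9 genes were picked by symbol from the 55491 rows of each tissue's table, and each symbol was found once in both tables. The choice was guided by the measurements themselves, because Safb and Sfpq stood out among genes that differed between UVB-treated and untreated WT nodes, and the other 7 were added around them. Values from that comparison, and from every comparison that draws on the same WT node libraries, are therefore given as descriptions without a test.

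Ifnk TG mice carry Ifnk, the gene of the type I interferon (IFN) IFNκ, under the keratin 14 promoter, which is active in epidermal keratinocytes; the line was bred onto BALB/c, and the WT mice were BALB/c. Skin came from 12-month-old mice as WT skin (n = 3), TG nonlesional (NL) skin (n = 2) and TG lesional (L) skin (n = 4), the lesions having arisen without irradiation. Inguinal nodes came from untreated WT mice, untreated TG mice, UVB-treated WT mice and UVB-treated TG mice (n = 3 each), where treatment was 250 mJ/cm2 of UVB at 310 nm on 3 days a week for 2 weeks followed by 2 weeks of observation, and all were bulk poly(A) RNA of whole tissue. The labels give no age for the node mice and do not say that libraries of a group came from separate mice, so p-values measure only the spread between these libraries. In bulk RNA, fewer cells of a type and less RNA per cell cannot be told apart, which holds for every difference below.

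Safb and Safb2 encode scaffold attachment factors, proteins that bind both nuclear matrix attachment DNA and RNA and that influence transcription and splicing. Sfpq, Nono and Pspc1 encode the DBHS (Drosophila behaviour/human splicing) proteins, which pair with each other and, with the long noncoding RNA Neat1 as a scaffold, build nuclear bodies called paraspeckles. Hnrnpu (also called scaffold attachment factor A) and Matr3 (matrin 3) encode abundant nuclear matrix proteins that bind RNA, and Malat1 is a very abundant noncoding RNA concentrated in nuclear speckles, where splicing factors of the serine- and arginine-rich (SR) family are stored. As background on the assay, Malat1 and the long Neat1 isoform lack a conventional poly(A) tail, so that poly(A) libraries capture them unevenly; the part of this in the values below was not tested.

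Total counts ran from 27599809 to 36428435 in the 12 node libraries and from 40499078 to 56511276 in the 9 skin libraries. B cell markers summed to 1669 to 3242 CPM (counts scaled to library size) and T cell markers to 2807 to 3570 CPM in nodes, against 1.80 to 7.38 CPM and 28.8 to 87.5 CPM in skin, whereas keratinocyte markers summed to at most 11.9 CPM in nodes and to between 9811 and 27340 CPM in skin. In nodes the hair keratins Krt25, Krt27, Krt31, Krt33a, Krt34, Krt35 and Krt71, the muscle gene Mb and the melanocyte genes Dct, Tyrp1 and Mlana were at 0 in all libraries. Ifnk was at 0 counts throughout the 12 node libraries and in WT skin, whereas L replicates 4 to 7 had 14, 11, 5 and 8 counts and NL replicates 2 and 3 had 6 and 0. The 3 UVB-treated TG node libraries were less like each other than were the libraries within the other node groups. Their mean Pearson r with each other was 0.970 to 0.973, against 0.984 to 0.988 within the other node groups. With libraries of other groups it was 0.973 to 0.980. Xist, a transcript of the inactive X chromosome, had 3 to 42 counts in nodes, 13 and 6 counts in NL replicate 3 and L replicate 6, and 3297 to 9353 counts in the other 7 skin libraries, while the labels name no sex.

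The positions of the members bear on how they can be read. Safb (chr17:56584825-56606294, plus strand) and Safb2 (chr17:56560965-56584585, minus strand; GENCODE M21, GRCm38) lie head to head, with 240 bases between their annotated gene starts and 397 bases between their RefSeq start sites. Sfpq lies at chr4:127021324-127037013 (plus strand), Nono at chrX:101429318-101448591 (plus strand), Pspc1 at chr14:56720710-56778316 (minus strand) and Hnrnpu at chr1:178321108-178337797 (minus strand). Malat1 (chr19:5795690-5802672) and Neat1 (chr19:5824708-5845478) are neighbours on the minus strand, 22036 bases apart. Exons of Hnrnpu share 804 bases with Cox20 on the opposite strand, those of Malat1 share 453 bases with Gm37376 on the opposite strand, those of Matr3 share 1754 bases with Gm28285 on the same strand, and those of Sfpq share 216 bases with Gm12940 on the same strand. Exons of Neat1 share 110, 152 and 122 bases with the small RNA genes Gm27505, Gm27533 and Gm28006 on the same strand, and those of Malat1 share 86 bases with Gm27694. Whether counting used strand is not given in the sources used here, so the counts of these 5 members are uncertain by what these overlapping genes hold.

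Promoter windows (RefSeq, GRCm38.p6, from 250 bases before to 50 bases after a start site) were searched for 7 members. The windows of Safb (chr17:56584732-56585031, plus strand) and Safb2 (chr17:56584536-56584835, minus strand) are printed 5′ to 3′ because both genes are read outward from 1 stretch of DNA; the capitals mark the 104 bases that both windows hold, as opposite strands. The Sfpq window (chr4:127021051-127021350, plus strand) is printed for contrast, with CCAAT boxes on either strand in capitals.
Safb: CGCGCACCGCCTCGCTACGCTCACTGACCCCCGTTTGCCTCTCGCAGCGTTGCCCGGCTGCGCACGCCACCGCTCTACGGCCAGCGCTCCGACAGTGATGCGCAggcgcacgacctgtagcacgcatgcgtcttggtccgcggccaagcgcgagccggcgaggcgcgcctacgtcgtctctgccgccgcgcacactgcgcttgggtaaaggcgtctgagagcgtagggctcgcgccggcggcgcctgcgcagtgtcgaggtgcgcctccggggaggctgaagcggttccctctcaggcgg
Safb2: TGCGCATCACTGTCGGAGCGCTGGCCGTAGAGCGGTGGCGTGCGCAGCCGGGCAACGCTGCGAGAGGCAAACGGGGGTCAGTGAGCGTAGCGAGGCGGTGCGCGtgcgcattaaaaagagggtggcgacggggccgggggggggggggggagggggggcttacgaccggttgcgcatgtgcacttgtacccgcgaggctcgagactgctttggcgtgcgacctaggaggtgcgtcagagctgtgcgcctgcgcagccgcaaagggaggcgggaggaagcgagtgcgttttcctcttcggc
Sfpq: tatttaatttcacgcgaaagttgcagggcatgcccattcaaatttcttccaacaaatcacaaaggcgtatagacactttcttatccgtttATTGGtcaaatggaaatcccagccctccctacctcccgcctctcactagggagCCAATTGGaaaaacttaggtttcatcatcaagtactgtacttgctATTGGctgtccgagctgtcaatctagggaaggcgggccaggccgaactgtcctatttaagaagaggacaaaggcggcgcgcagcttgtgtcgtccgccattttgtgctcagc

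The Safb and Safb2 windows were 72.0% and 68.7% G or C, against 48.0% in the Sfpq window and a median of 52.7% over 32817 windows. The letters TGCGCA, which read the same on both strands, occurred 3 times in the Safb window and 5 times in the Safb2 window, with 2 of each inside the shared bases, and also occurred 2 times in the Pspc1 window and 1 time in the Nono window, against 7.75% of all windows with any match. CCAAT, searched on both strands, occurred 4 times in the Sfpq window, with a pair of matches on opposite strands overlapping, 2 times in the Nono window and 1 time in the Pspc1 window, against 37.4% of all windows with any match. The letters CCATNTT occurred 1 time each in the Sfpq and Pspc1 windows (16.1% of all windows). The Hnrnpu and Malat1 windows held none of these letters. These are letter matches only.

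Compared per kilobase of merged exon, Malat1 was the highest member in nodes at 297 ± 138 CPM per kb (SD, n = 12). Sfpq followed at a mean of 78.1 (range 47.8 to 105), Nono at 77.7 ± 2.72 and Hnrnpu at 74.5 ± 4.95 CPM per kb, and these 3 did not differ beyond their spread, as Sfpq was above Nono in 6 of 12 libraries and Nono above Hnrnpu in 8 of 12. Matr3 (35.3 ± 1.47), Safb (20.4 ± 4.92) and Safb2 (16.2 ± 4.07 CPM per kb) came next, each above its successor in all 12 libraries. Neat1 (8.44 ± 4.35 CPM per kb) and Pspc1 (6.91 ± 0.551 CPM per kb) were the lowest, and Neat1 was above Pspc1 in 6 of 12 libraries. In skin the order began with Malat1 (52.1 ± 43.8 CPM per kb, SD, n = 9) and Nono (35.9 ± 6.28 CPM per kb), which did not differ beyond their spread, went on with Sfpq, Hnrnpu, Matr3 and Neat1, and ended with Safb (6.14 ± 0.594), Safb2 (4.52 ± 0.404) and Pspc1 (3.31 ± 0.445 CPM per kb), each above the next in all 9 libraries. Safb was above Safb2 per kilobase in every library of both tissues. Neat1 was divided by 20771 bases, which take in its long isoform without a conventional poly(A) tail, so its place in these orders is uncertain.

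The members differed in how much they varied across nodes. Nono and Matr3 differed by 1.13-fold and 1.15-fold between the highest and the lowest of 12 node libraries, and Hnrnpu and Pspc1 by 1.25-fold and 1.27-fold. Sfpq, Safb and Safb2 spanned 2.19-fold, 2.28-fold and 2.44-fold, and the noncoding Malat1 and Neat1 spanned 4.53-fold and 6.72-fold.

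In WT nodes, the levels of Safb, Safb2, Sfpq and Neat1 were higher 2 weeks after the end of UVB treatment than without treatment, with no overlap between the 3 treated and 3 untreated libraries. Safb stood at 117, 88.4 and 97.4 CPM without UVB and at 184, 202 and 192 CPM after UVB, a log2 fold change of 0.93 ± 0.10 (SE). Safb2 stood at 104, 69.7 and 91.9 CPM without UVB and at 168, 169 and 170 CPM after UVB (log2 fold change 0.93 ± 0.14). The treated libraries of both scaffold attachment factors lay close together and above every untreated WT library.

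Sfpq, the DBHS protein that binds splicing factors and is needed for paraspeckles, stood at 297, 271 and 227 CPM without UVB and at 431, 496 and 462 CPM after UVB in WT nodes (log2 fold change 0.81 ± 0.10). Neat1, the paraspeckle scaffold, stood at 108, 108 and 80.7 CPM without UVB and at 251, 286 and 255 CPM after UVB (log2 fold change 1.42 ± 0.54). The SE rests on a spread estimated over all 4 node groups, among them the TG nodes, where Neat1 was uneven.

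The other DBHS genes showed no such separation in WT nodes. Nono stood at 342 to 356 CPM without UVB and at 328 to 344 CPM after UVB, and Pspc1 at 37.6 to 42.0 and 34.1 to 39.8 CPM, with overlapping groups (log2 fold changes -0.06 ± 0.08 and -0.09 ± 0.11). Hnrnpu (740 to 874 against 871 to 923 CPM), Matr3 (362 to 386 against 351 to 373 CPM) and Malat1 (1267 to 2159 against 1271 to 2210 CPM) also overlapped. Across all 16173 genes tested in nodes, 37.1% had WT groups that did not overlap (19.8% of all genes with UVB-treated libraries higher and 17.3% with them lower), beside 4 of 9 members. By edgeR 4.98% of all genes were called in this comparison (2.92% higher and 2.06% lower), and none without UVB-treated WT replicate 8. Since members were chosen from this comparison, nothing is read from their count.

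**Figure D1:**
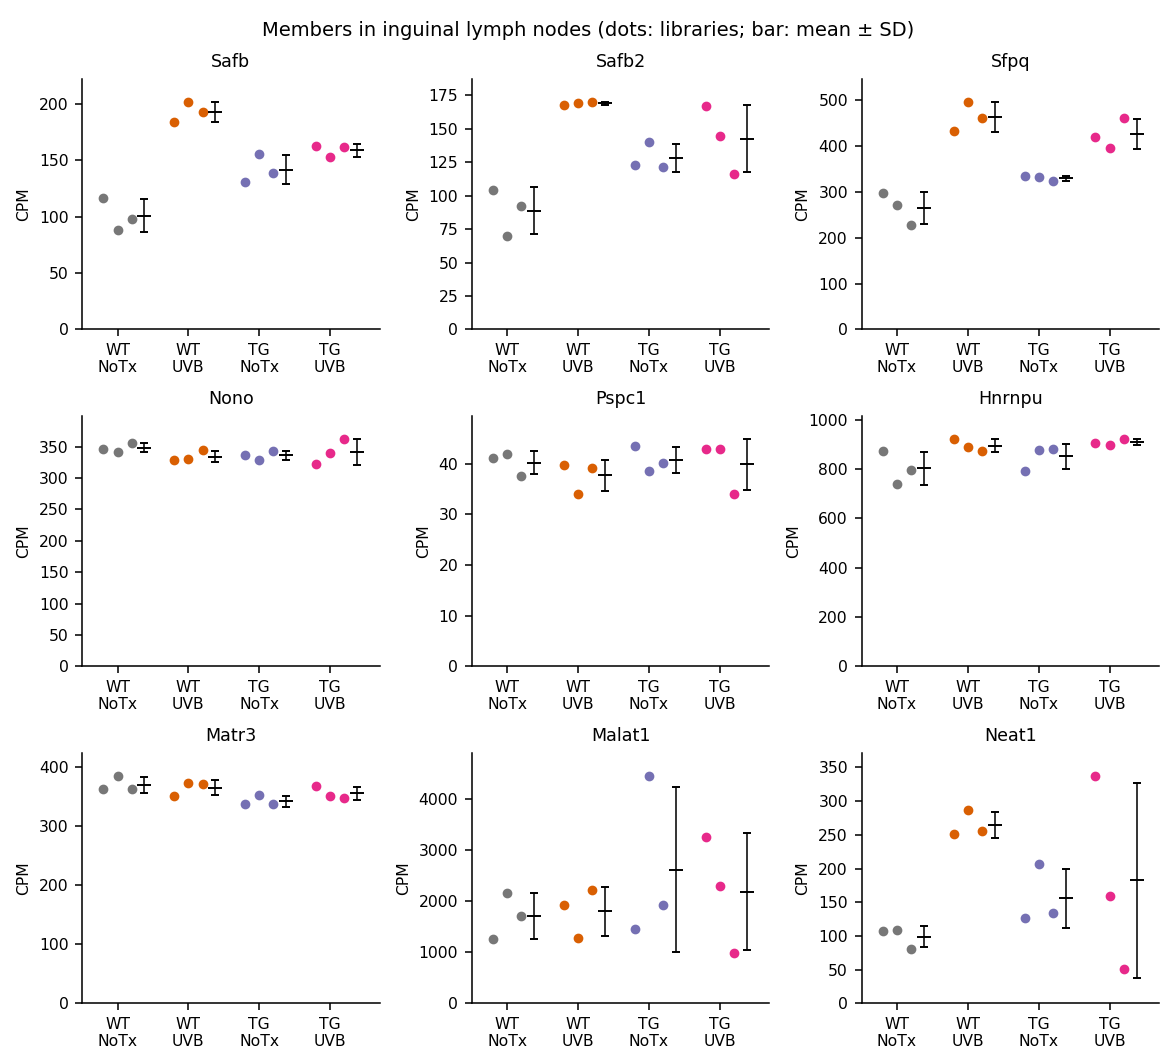
CPM of each member (vertical axis, from 0) in the 4 node groups; each dot is a library and the bar is the mean ± SD of 3 libraries. Safb, Safb2, Sfpq and Neat1 are separated between untreated and UVB-treated WT nodes, whereas Nono and Matr3 span only 1.13-fold and 1.15-fold over all 12 libraries.

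TG nodes were not part of the comparison in which Safb and Sfpq were noticed, although the members were chosen with earlier results known. In TG nodes, 0 of 9 members passed an adjusted p of 0.05 after UVB by edgeR's quasi-likelihood test. Over all genes 0% were called in this comparison, with 1507 genes at an unadjusted p under 0.05, 137 genes called by DESeq2 and 236 genes called by edgeR without UVB-treated TG replicate 12. DESeq2 called 0 members as well, and 1 member, Sfpq, had an unadjusted p under 0.05. No member was called when any 1 of the 12 node libraries was left out.

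Sfpq stood at 333, 332 and 323 CPM in untreated TG nodes and at 418, 396 and 461 CPM in UVB-treated TG nodes, so that the groups did not overlap (log2 fold change 0.37 ± 0.10, adjusted p = 0.297). Hnrnpu was the other member without overlap, at 793, 878 and 882 against 906, 899 and 921 CPM (log2 fold change 0.09 ± 0.09, adjusted p = 0.789). These 2 of 9 members compare with 13.3% of all genes, whose TG groups did not overlap (6.23% with UVB-treated libraries higher and 7.11% with them lower).

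Safb stood at 131, 155 and 139 CPM in untreated TG nodes and at 162, 152 and 161 CPM in UVB-treated TG nodes (log2 fold change 0.16 ± 0.10, adjusted p = 0.643). Safb2 stood at 123, 140 and 121 CPM against 167, 144 and 116 CPM (log2 fold change 0.15 ± 0.14, adjusted p = 0.782). For both genes the TG groups overlapped, and UVB-treated TG replicate 12 held the lowest Safb2 level of its group.

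Neat1 and Malat1 were the most uneven members in TG nodes. Neat1 stood at 127, 207 and 134 CPM without UVB and at 338, 159 and 50.3 CPM after UVB (log2 fold change 0.23 ± 0.53, adjusted p = 0.937), so that UVB-treated TG replicates 10 and 12 held the highest and the lowest Neat1 level of all 12 node libraries. Without UVB-treated TG replicate 10 its log2 fold change was -0.58. Malat1 stood at 1452, 4453 and 1924 CPM without UVB and at 3258, 2298 and 983 CPM after UVB (log2 fold change -0.26 ± 0.50, adjusted p = 0.914), and without untreated TG replicate 5, the highest library, its log2 fold change was 0.36. Nono, Pspc1 and Matr3 had log2 fold changes between -0.03 and 0.06 in TG nodes, with adjusted p values of 0.860 to 0.955.

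Read side by side, untreated TG nodes lay between untreated and UVB-treated WT nodes for the 4 members that were higher in WT after UVB. These 4 were singled out by the gap between those WT groups, which by itself favours such a middle place. Against the 3 untreated WT libraries, all 3 untreated TG libraries were higher for Safb (log2 difference 0.49 ± 0.10), Safb2 (0.53 ± 0.14), Sfpq (0.31 ± 0.10) and Neat1 (0.66 ± 0.53), and lower for Matr3 (-0.11 ± 0.07). Groups did not overlap for 10.5% of all genes in this comparison, 5.52% with TG higher and 4.93% with TG lower, while 0% passed an adjusted p of 0.05 (549 genes at an unadjusted p under 0.05, and 2 genes called by DESeq2). The highest untreated TG library remained below the lowest UVB-treated WT library for Safb (155 against 184 CPM), Safb2 (140 against 168 CPM), Sfpq (333 against 431 CPM) and Neat1 (207 against 251 CPM).

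After UVB, TG nodes were lower than WT nodes in all 3 libraries for Safb (log2 difference -0.28 ± 0.10) and Safb2 (-0.24 ± 0.14), and overlapped for Sfpq (-0.12 ± 0.10) and Neat1 (-0.53 ± 0.53). In this comparison 9.71% of all genes did not overlap, 5.39% with TG higher and 4.32% with TG lower, and 0% were called by edgeR (1131 genes at an unadjusted p under 0.05, and 19 genes called by DESeq2). The difference between the UVB response of TG nodes and that of WT nodes was -0.77 ± 0.14 for Safb, -0.77 ± 0.20 for Safb2, -0.44 ± 0.15 for Sfpq and -1.19 ± 0.75 for Neat1 on the log2 scale. The Neat1 values rested on single libraries: without UVB-treated TG replicate 10 the difference after UVB was -1.32 and that of the responses -1.98, and without UVB-treated TG replicate 12 they were -0.09 and -0.74. These contrasts use the WT libraries in which Safb and Sfpq were noticed and share libraries with the comparisons above, so the members were not tested in them. Singling out members by a large WT response also favours a smaller response in TG nodes. Over all genes 0% were called for the difference of responses by edgeR (881 genes at an unadjusted p under 0.05, and 8 genes called by DESeq2).

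Over the 12 node libraries, the log2 CPM of Safb followed that of Safb2 with a Pearson r of 0.94 and that of Sfpq with an r of 0.93, and these ranked 2 and 5 among 16173 genes by likeness to Safb. Outside the members, the genes most like Safb were Samd1 (r 0.94), Mon1a (r 0.93), Ypel2, Setd7 and Bend4, and those most like Sfpq were Dlg5, 6530402F18Rik, Nfya, Hnrnpm and Icos. After subtraction of group means the r was 0.66 for Safb with Safb2, 0.48 for Safb with Sfpq, 0.79 for Safb with Hnrnpu and -0.11 for Safb2 with Sfpq. All these points share library, depth and group, and the values are descriptive. Safb and Sfpq were both noticed in WT nodes among these libraries, so their likeness over libraries follows in part from the choice.

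The other genes of these pathways were read from lists of known pathway genes, written with earlier results of these data known. In the WT comparison, which holds the same libraries as the choice of genes, 32 of 34 nuclear speckle and SR protein genes had a higher level after UVB, with a median log2 fold change of 0.47, as had 17 of 26 paraspeckle protein genes (median 0.33), 11 of 17 scaffold attachment and nuclear matrix genes (median 0.16) and 14 of 28 heterogeneous nuclear ribonucleoprotein (hnRNP) genes (median 0.01), while the median over all genes was -0.0048. Of 8 nuclear noncoding RNAs tested, 6 had a higher level (median 0.57). Of all genes 49.4% had a higher level after UVB in WT nodes. None of Safb, Safb2, Sfpq and the other members is in these lists. The 4 speckle and SR genes with the largest values, picked after their values were seen, were Rsrp1 (log2 fold change 1.74 ± 0.48), the CDC-like kinase Clk1 (1.31 ± 0.36), which phosphorylates SR proteins, Srsf7 (1.19 ± 0.30), an SR splicing factor, and Clk4 (1.08 ± 0.31).

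In TG nodes after UVB, 26 of 34 speckle and SR genes (median log2 fold change 0.16), 14 of 26 paraspeckle genes (median 0.02), 9 of 17 scaffold and matrix genes (median 0.03), 10 of 28 hnRNP genes (median -0.03) and 7 of 8 tested nuclear noncoding RNAs (median 0.47) had a higher level, beside a median of 0.02 over all genes, and 0 genes of these lists passed the test. Of all genes 53.8% had a higher level after UVB in TG nodes. The summed level of the speckle and SR list was 6720 to 7686 CPM in untreated WT, 7123 to 8174 CPM in untreated TG, 9674 to 11026 CPM in UVB-treated WT and 6656, 8639 and 10879 CPM in UVB-treated TG nodes. UVB-treated TG replicate 12, the lowest of its group for Neat1, Malat1 and Safb2, was also the lowest of the 12 libraries for this sum. All 16 type I interferon-stimulated genes listed had a higher level in UVB-treated than in untreated TG nodes (median log2 fold change 1.81), and 0 of them passed the test. In WT nodes 1 of 16 was higher after UVB (median -1.36), and 0 of 16 were higher in untreated TG than in untreated WT nodes (median -1.99). The summed level of this list was uneven within groups. It was 841 to 1084 CPM in untreated TG and 1387, 2406 and 1636 CPM in UVB-treated TG nodes. Untreated and UVB-treated WT nodes overlapped, at 1160 to 2193 and 1130 to 1612 CPM.

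Other lists differed between the same node groups as Safb and Sfpq. The 12 heat shock genes listed summed to 3515 to 4158 CPM in untreated WT, 3849 to 4147 CPM in untreated TG, 5478 to 11682 CPM in UVB-treated WT and 4473 to 7169 CPM in UVB-treated TG nodes. Erythroid markers summed to 121 to 265 CPM in untreated WT, 262 to 304 CPM in untreated TG, 10.8 to 39.5 CPM in UVB-treated WT and 26.2 to 160 CPM in UVB-treated TG nodes. Proliferation markers summed to 84.1 to 139, 75.0 to 166, 190 to 333 and 142 to 264 CPM in the same order. Between untreated and UVB-treated WT nodes, summed levels also did not overlap for T cell markers (3492 to 3538 against 2807 to 3172 CPM), fibroblast and stromal markers (102 to 139 against 30.3 to 84.5 CPM), endothelial markers (280 to 327 against 201 to 240 CPM), adipocyte markers (79.9 to 98.9 against 71.2 to 75.9 CPM), plasma cell markers (191 to 204 against 227 to 270 CPM) and ribosomal protein genes (24143 to 31734 against 20219 to 22955 CPM). The plasma cell list did not shift as a whole in WT nodes, as 3 of 6 tested genes were higher after UVB (median log2 fold change 0.04). The part of these lists in the levels of Safb, Safb2, Sfpq and Neat1 was not tested.

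**Figure D2:**
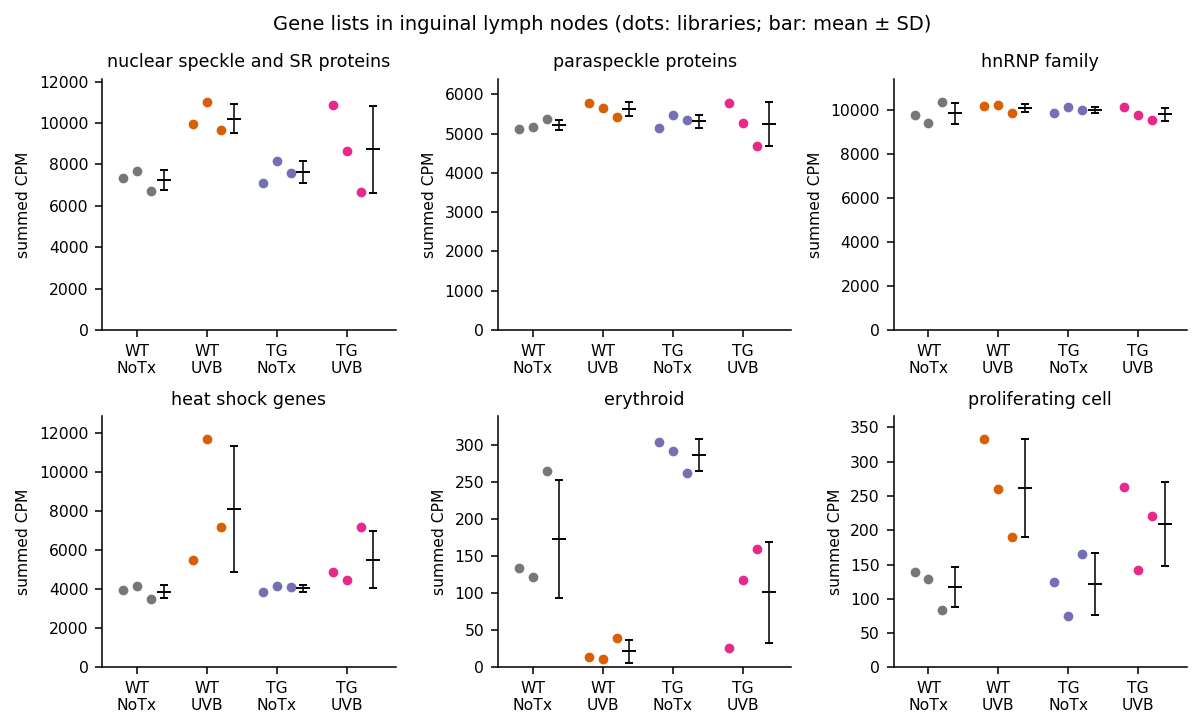
Summed CPM of 6 gene lists (vertical axis, from 0) in the 4 node groups; each dot is a library and the bar is the mean ± SD of 3 libraries. The speckle and SR list and the heat shock list are higher in all 3 UVB-treated WT libraries than in untreated WT libraries, the erythroid list is lower in them, and the hnRNP list shows no such separation.

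In skin, whose libraries were not those in which Safb and Sfpq were noticed, the lesions were compared with WT skin. The members were chosen with earlier results of these data known, so independence of the skin tests from the choice is not established. Malat1, Nono and Sfpq were higher in TG L skin, and 3 of 9 members passed the test by edgeR. Of the 19101 genes tested in skin 43.1% were called, 23% as higher and 20.2% as lower, so that the count of 3 members is near the background and is no result about the members as a set. All 9 members had a positive log2 fold change, beside 53.5% of all genes, and their median was 0.43 against a median of 0.06 over all genes.

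Malat1, the nuclear speckle RNA, stood at 246, 157 and 151 CPM in WT skin, 237 and 189 CPM in NL skin and 564, 1104, 365 and 259 CPM in L skin. All L libraries were above all others, with a log2 fold change of 1.64 ± 0.48 against WT (adjusted p = 0.0253). This call was lost without WT replicate 9 or WT replicate 10 (adjusted p = 0.0845 and 0.0856) and with no filter on low counts (adjusted p = 0.0624).

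Nono, the DBHS partner of Sfpq and a gene on the X chromosome, stood at 131, 130 and 133 CPM in WT skin, 154 and 147 CPM in NL skin and 152, 165, 196 and 205 CPM in L skin. Both TG groups were above WT in every library, with a log2 fold change of 0.45 ± 0.12 for L against WT (adjusted p = 0.0143). Without WT replicate 9 the adjusted p was 0.0532.

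Sfpq stood at 101, 85.0 and 112 CPM in WT skin, 103 and 99.7 CPM in NL skin and 108, 130, 158 and 190 CPM in L skin. It passed the test against WT (log2 fold change 0.56 ± 0.19, adjusted p = 0.0397) although L replicate 4 lay below WT replicate 10. The call was lost in 9 of the alternatives, among them the 2 compared groups fitted alone (adjusted p = 0.0844), Xist as a covariate (adjusted p = 0.0669) and the removal of any single library except L replicates 4 and 5, where the highest adjusted p was 0.146 without WT replicate 9. Without WT replicate 9, 0 of 9 members were called, and without WT replicate 10, 1 was.

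The scaffold attachment factors differed little between lesions and WT skin. Safb stood at 37.8 to 46.8 CPM in WT, 40.4 and 47.6 CPM in NL and 41.4 to 49.9 CPM in L skin (log2 fold change L against WT 0.09 ± 0.12, adjusted p = 0.599). Safb2 stood at 37.2, 32.2 and 30.8 CPM in WT, 36.6 and 39.9 CPM in NL and 39.8, 38.9, 39.0 and 37.9 CPM in L skin, all L libraries above all WT libraries (log2 fold change 0.22 ± 0.09, adjusted p = 0.0853). Groups did not overlap for 49.4% of all genes in this comparison, 26% with L higher, beside 3 of 9 members (Malat1, Nono and Safb2).

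Hnrnpu stood at 214 to 265 CPM in WT and at 260, 274, 349 and 417 CPM in L skin (log2 fold change 0.43 ± 0.18, adjusted p = 0.0787). Pspc1 and Matr3 had log2 fold changes of 0.19 ± 0.14 and 0.16 ± 0.10 (adjusted p = 0.306 and 0.242). Neat1 stood at 132, 76.4 and 69.4 CPM in WT and at 271, 310, 148 and 95.5 CPM in L skin (log2 fold change 1.16 ± 0.58, adjusted p = 0.140). Calls were gained for Neat1 with Xist as a covariate (adjusted p = 0.0492), for Hnrnpu without L replicate 4 (adjusted p = 0.0353) and for Safb2 without WT replicate 8 (adjusted p = 0.0428).

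**Figure D3:**
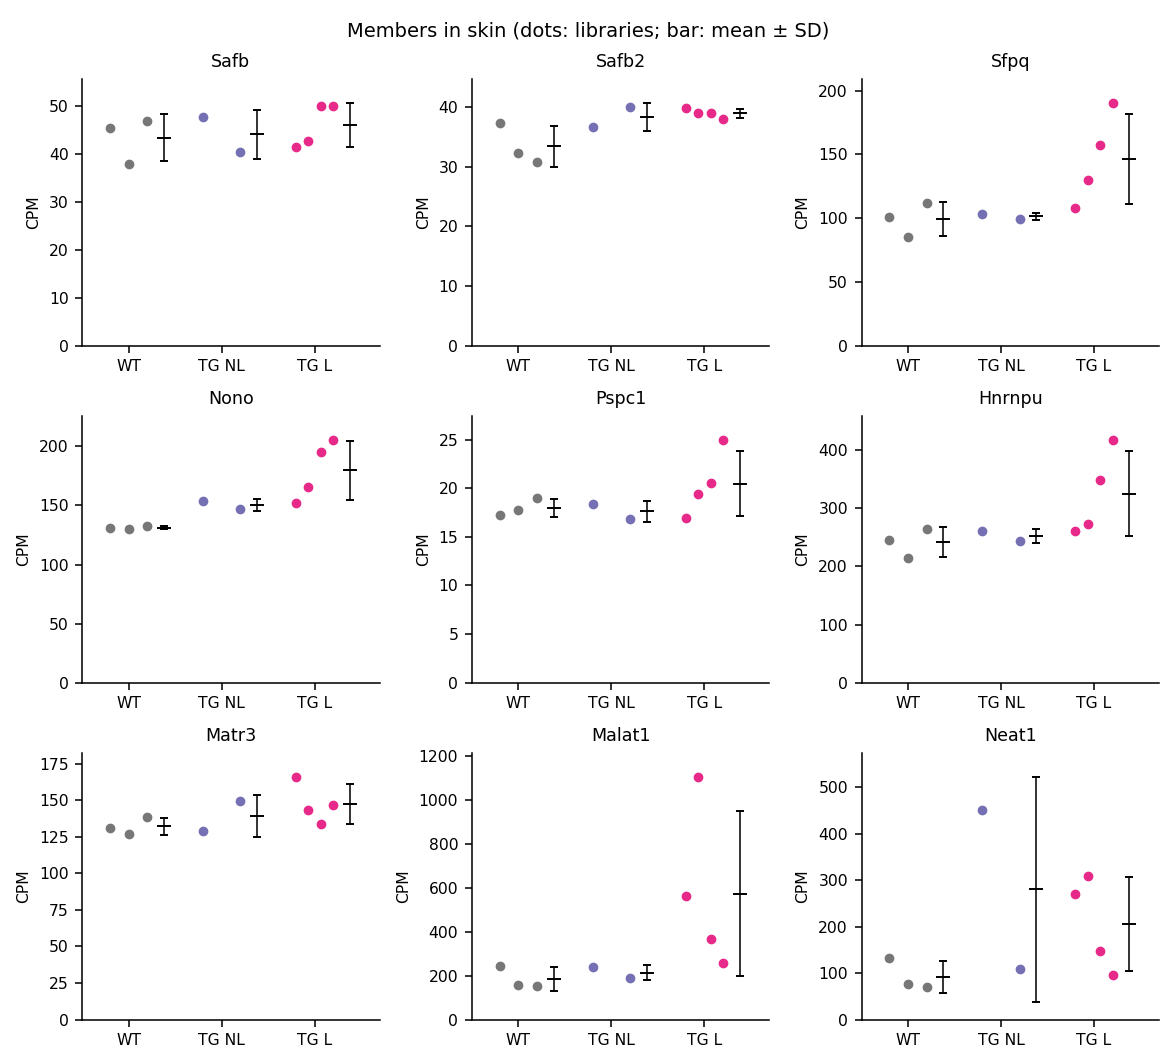
CPM of each member (vertical axis, from 0) in WT (n = 3), TG NL (n = 2) and TG L (n = 4) skin; each dot is a library and the bar is the mean ± SD. Malat1 is higher in all 4 L libraries than in the other 5, Sfpq, Nono and Hnrnpu reach their highest levels in L replicates 6 and 7, and Neat1 has a single high NL library at 452 CPM.

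Between L and NL skin of TG mice, 0 of 9 members passed the test by edgeR, beside 25% of all genes. An unadjusted p under 0.05 was reached by 2 members, and DESeq2 called 1, Malat1 (adjusted p = 0.0158). Malat1 (log2 fold change 1.43 ± 0.56, adjusted p = 0.0952) and Sfpq (0.53 ± 0.22, adjusted p = 0.105) were the members whose groups did not overlap, as was so for 49.4% of all genes. Sfpq passed without L replicate 4 (adjusted p = 0.0311), and Malat1 without L replicate 7 (adjusted p = 0.0452). Neat1 had a log2 fold change of -0.44 ± 0.62 (adjusted p = 0.640), and without NL replicate 2, whose level of 452 CPM was the highest of all skin libraries, it was 0.91.

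Between NL and WT skin, 0 of 9 members and 0% of all genes passed the test by edgeR, with 1 member (Neat1) and 1465 genes at an unadjusted p under 0.05, and DESeq2 called 0 members and 80 genes. Nono was the single member whose groups did not overlap (log2 fold change 0.20 ± 0.14, adjusted p = 0.756), beside 35% of all genes. Neat1 had the widest difference (1.60 ± 0.66, adjusted p = 0.646), with 452 and 110 CPM in the 2 NL libraries; without NL replicate 2 it was 0.24 and without NL replicate 3 it was 2.26. The other 7 members had log2 fold changes between -0.03 and 0.21.

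**Figure D4:**
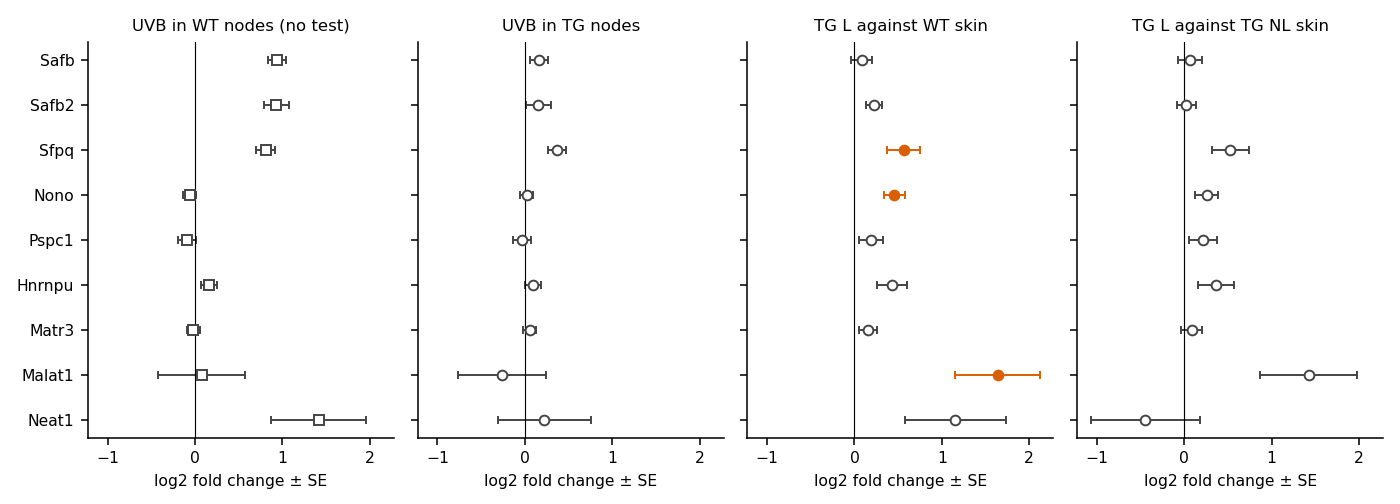
Log2 fold change ± SE (horizontal axis) of the 9 members in 4 comparisons; filled points passed an adjusted p of 0.05 by edgeR, open circles did not, and squares mark the WT node comparison, for which no test was made. Safb and Safb2 stand near 0.93 in WT nodes and within 0.22 of 0 in the other 3 panels, whereas filled points occur for Sfpq, Nono and Malat1 in L against WT skin.

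Across the 9 skin libraries, the r of the log2 CPM of Sfpq was 0.98 with Hnrnpu, which ranked 2 among 19101 genes, 0.92 with Nono, 0.90 with Pspc1 and 0.73 with Safb, and it was 0.98, 0.91, 0.91 and 0.82 after subtraction of group means. In nodes the corresponding r over libraries was 0.73 with Hnrnpu, -0.31 with Nono, -0.34 with Pspc1 and 0.93 with Safb, noticed together with Sfpq in WT nodes. After subtraction of group means the node values were 0.20, 0.07, -0.25 and 0.48 in the same order. Safb and Safb2, with an r of 0.94 in nodes, had an r of 0.09 in skin, where Safb spanned 1.32-fold and Safb2 slightly less. Outside the members, the genes most like Sfpq in skin were Gspt1, Ftsj1, Ulk4, Hnrnpk and Eml4, and those most like Safb were Exoc1, Slc25a14, Prpf3, Proser1 and Sf3b1. The tissues were normalized separately and differ in number of libraries, and the difference between these correlations was not tested.

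In the wider lists, genes called in lesions against WT skin were mostly increased. Of 26 paraspeckle genes 14 rose and 0 fell (median log2 fold change 0.43), of 28 hnRNP genes 15 rose and 0 fell (median 0.40), and of 34 speckle and SR genes 18 rose and 1 fell (median 0.38), beside 23% of all genes called higher, 20.2% called lower and a median of 0.06. Of 17 scaffold attachment and nuclear matrix genes 7 rose and 3 fell (median 0.24), and of 11 nuclear noncoding RNAs 2 rose and 0 fell (median 0.49). The lists overlap in part.

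The largest increases among paraspeckle genes were those of Dazap1, an RNA-binding protein (log2 fold change 0.75 ± 0.13, adjusted p = 0.00242), and Nudt21, a subunit of the cleavage factor that sets poly(A) sites (0.71 ± 0.09, adjusted p = 0.000465). Among hnRNP genes they were those of the splicing regulators Ptbp1 (0.82 ± 0.18, adjusted p = 0.00685) and Hnrnpa3 (0.81 ± 0.12, adjusted p = 0.00106). Among speckle and SR genes Srsf7 (0.97 ± 0.17, adjusted p = 0.00234) and Srsf3 (0.90 ± 0.13, adjusted p = 0.00111), both SR splicing factors, rose, and the kinase gene Dyrk1a fell by 0.43 on the log2 scale (adjusted p = 0.00455).

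The scaffold and matrix list split in both directions. Lmnb1, the gene of lamin B1 of the nuclear lamina, rose by 2.44 ± 0.30 on the log2 scale (adjusted p = 0.000523). Satb1, a matrix-attachment DNA-binding protein, fell by 1.79 (adjusted p = 0.000838) and Akap8l fell by 0.52 (adjusted p = 0.0187). Of the noncoding RNAs, Kcnq1ot1 (1.32 ± 0.44, adjusted p = 0.0379) and Tug1 (0.42 ± 0.08, adjusted p = 0.00431) rose. Of the 16 type I interferon-stimulated genes 4 rose and 0 fell, led by Isg15 (2.51 ± 0.57, adjusted p = 0.00936) and Oas2 (2.11 ± 0.53, adjusted p = 0.0128). Of all genes 23% were called higher and 20.2% lower. These 4 of 16, and the 2 of 11 noncoding RNAs, are therefore no result about those lists.

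Against NL skin the counts were lower, with 13.2% of all genes called higher and 11.8% called lower. In L skin 6 paraspeckle genes rose and 1 fell, 9 hnRNP genes rose and 0 fell, 7 speckle and SR genes rose and 0 fell, 3 scaffold and matrix genes rose and 3 fell, and among noncoding RNAs 0 rose and 1 fell. Nudt21 (0.74 ± 0.10, adjusted p = 0.00198), Dazap1 (0.59 ± 0.15, adjusted p = 0.0230), Srsf7 (0.85 ± 0.19, adjusted p = 0.0149), Srsf3 (0.79 ± 0.15, adjusted p = 0.00812) and Lmnb1 (2.03 ± 0.35, adjusted p = 0.00508) rose again, and Satb1 fell by 1.96 (adjusted p = 0.00229), Akap8l by 0.71 (adjusted p = 0.0144). Hnrnpa0 (0.60 ± 0.15, adjusted p = 0.0235) and Hnrnpc (0.59 ± 0.17, adjusted p = 0.0323) led the hnRNP genes, Cpsf7 fell by 0.36 (adjusted p = 0.0263) and Snhg11 fell by 1.99 (adjusted p = 0.0470). Isg15 (2.93 ± 0.69, adjusted p = 0.0192) and Oas2 (2.51 ± 0.64, adjusted p = 0.0231) led the 4 of 16 interferon-stimulated genes that rose, and between NL and WT skin 0 genes of any of these lists passed.

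**Figure D5:**
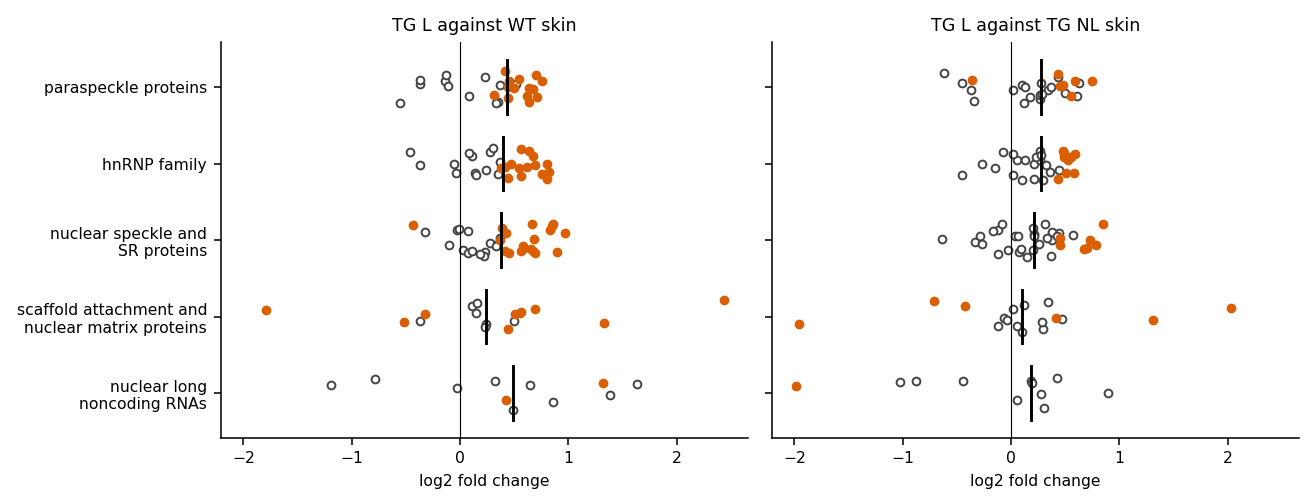
Log2 fold change (horizontal axis) of each tested gene in 5 lists for L against WT skin (left) and L against NL skin (right); filled points passed an adjusted p of 0.05 by edgeR, open points did not, and the black bar is the list's median. The paraspeckle, hnRNP and speckle lists have medians of 0.43, 0.40 and 0.38 on the left, with called genes almost all to the right of 0, while the scaffold and matrix list has called genes on both sides.

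Markers of other cell types differed between the same skin groups. Proliferation markers summed to 246, 237, 468 and 543 CPM in L replicates 4 to 7, 70.5 and 71.5 CPM in NL and 36.8 to 63.4 CPM in WT skin, so that L replicates 6 and 7, highest for Sfpq, Nono and Hnrnpu, were highest for these as well. Hair shaft and follicle markers summed to 3520 to 15990 CPM in L, 8.68 and 12.7 CPM in NL and 5.07 to 5.31 CPM in WT skin, skeletal muscle markers to 25.7 to 7617 CPM in L against 26515 to 39648 CPM in the other groups, and melanocyte markers to 134 to 630 CPM in L against 27.9 to 39.6 CPM in the others. Neutrophil markers summed to 68.6 to 626 CPM in L against 38.3 to 48.2 CPM in the others, and plasma cell markers to 757 to 1223 CPM in L against 454 to 659 CPM, whereas endothelial markers (126 to 246 against 268 to 389 CPM) and adipocyte markers (869 to 4437 against 6796 to 11421 CPM) were lower in L. Of 7 plasma cell genes, 3 were called higher and 1 lower in L than in WT, and 1 higher than in NL. B cell markers summed to at most 7.38 CPM in skin, and the plasma cell sum is not read as a number of plasma cells. Among the RNA quality lists, ribosomal protein genes summed to 18642 to 25640 CPM in L, 13478 to 15933 CPM in NL and 12061 to 13524 CPM in WT skin, with 23 of 24 called higher in L than in WT and 12 of 24 than in NL, and mitochondrially encoded genes to 40697 to 84557, 60620 to 82737 and 84816 to 102313 CPM, with 4 of 13 called lower in L than in WT. The part of these lists in the levels of the members and of the paraspeckle, hnRNP and speckle genes was not tested.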

How the data were processed

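Poly(A) RNA of 12 inguinal lymph node and 9 skin libraries was sequenced by the authors. Per the labels, their processing named cutadapt 4.8, FastQC 0.11.8, STAR 2.7.8a, RSEM 1.3.3 and MultiQC 1.20 with the GRCm38 build; they deposited RSEM expected counts per gene, 1 table per tissue. Whether counting used strand is not given in the sources used here. The deposited expected counts were rounded to whole numbers, and 3 reporter rows (0 counts in all libraries) were left out. No per-sample column was left unused.

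Each tissue's whole table was fitted with edgeR 4.0.16 in R 4.3.3 (TMM scaling, filterByExpr with a minimum count of 10, robust quasi-likelihood F-tests, group as the single term). This left 16173 genes in nodes and 19101 in skin, among them all 9 members. Benjamini-Hochberg adjustment ran over every gene tested in a comparison, and an adjusted p under 0.05 was called. The SE of a log2 fold change was its absolute value divided by the square root of the F statistic, also where no p is given. CPM were TMM-scaled, and log2 CPM used a prior count of 2. The tests were checked on simulated data. The members and gene lists were chosen with earlier results of these data known. Members were tested in UVB-treated against untreated TG nodes and in the 3 skin comparisons, and were only described in comparisons that use the WT node libraries. Named were all members, in each list and tested comparison the 2 called genes that rose most and the 2 that fell most, and the 5 genes outside the members most like Safb and Sfpq by Pearson r; 4 speckle genes were added after their values were seen, and 1 gene that the rule names is not reported here. Cell type and RNA quality lists were read as summed CPM. Within a group, libraries differed by far more than sampling noise (mean chi-square of at least 18.3 per gene), so none was a duplicate. Alternatives were DESeq2 1.42.0, other scalings and filters, the compared groups alone, no robust estimation, Xist as a covariate and each library left out.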

Additional observations from a re-analysis of the deposited data

How the results depend on the processing

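No paired analysis was possible because the labels do not name the mouse of any library. Whether L and NL skin came in part from the same mice is therefore not known. In L against WT skin, 3 members were called; the count was 2 with no filter on low counts and with the compared groups fitted alone, and 0 to 4 with 1 library left out. In L against NL skin it was 0, but 1 with DESeq2 and 0 to 1 with 1 library left out.

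The number of all genes called for UVB in WT nodes was 805 and became 2002 with DESeq2, 2431 with the compared groups alone, 407 with Xist as a covariate and 0 to 2644 with 1 library left out (0 without UVB-treated WT replicate 8, 2644 without UVB-treated TG replicate 12). For UVB in TG nodes (0) it was 137 with DESeq2 and 0 to 236 with 1 library left out. For TG against WT nodes without UVB (0) it was 2 with DESeq2 and 0 to 1 leaving 1 out; after UVB (0), 19 with DESeq2, 1 with no filter and 0 to 2 leaving 1 out; for the difference of responses (0), 8 with DESeq2 and 0 to 1 leaving 1 out. For L against NL skin (4782) it was 3156 with the groups alone and 1182 to 5187 leaving 1 out, and for NL against WT skin (0) 80 with DESeq2 and 1 with the groups alone. The causes were not tested.

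The log2 fold changes of Safb, Safb2 and Sfpq in UVB-treated WT nodes kept their direction in every alternative and, leaving 1 library out, ran from 0.85 to 1.03, 0.78 to 1.04 and 0.69 to 0.87. Some signs turned. Nono in TG nodes after UVB was -0.0072 with upper-quartile scaling. Safb in NL against WT skin was -0.0061 with DESeq2, -0.0064 with RLE scaling, -0.00042 with upper-quartile scaling, -0.0057 with no filter and -0.019 with at least 10 counts in every library, where Sfpq was -0.010. With 1 library left out, signs turned within these ranges: in TG nodes after UVB Nono -0.041 to 0.068, Pspc1 -0.090 to 0.055, Malat1 -0.67 to 0.36 and Neat1 -0.58 to 0.65; in L against WT skin Safb -0.017 to 0.14; in L against NL skin Safb -0.039 to 0.19, Safb2 -0.037 to 0.10, Matr3 -0.017 to 0.21 and Neat1 -1.12 to 0.91; in NL against WT skin Safb -0.10 to 0.11, Sfpq -0.075 to 0.13, Pspc1 -0.091 to 0.015, Hnrnpu -0.022 to 0.14 and Matr3 -0.064 to 0.18. Signs of the described Malat1 values turned too, from -0.13 to 0.28 for UVB in WT nodes, -0.025 to 0.89 and -0.12 to 0.63 for TG against WT without and after UVB and -0.72 to 0.31 for the difference of responses, as did those of Nono, Pspc1 and Matr3 within 0.2 of 0.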
